A study of Rattus norvegicus with 16 samples.

Results

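The data compare the lungs of 4 male Sprague-Dawley rats that spent 2 weeks in low oxygen while a pump released estradiol with the lungs of 4 male rats kept at normal oxygen. They show what differed from the normal lung when hypoxia and estradiol were present together. The arrays were chosen by sample title, 4 for hypoxia with estrogen and no fulvestrant and 4 for normoxia, which makes 8 of the 16 arrays of the series, 1 per rat. Rats of the estradiol group, weighing 250 to 300 g, carried an osmotic pump under the skin that released E2 (17β-estradiol) at 75 µg/kg/day for 3 weeks. After 1 week of recovery they lived for 2 weeks at a chamber pressure of 362 mmHg, which supplies as much oxygen as 10% would at sea level. The normoxia rats received neither hypoxia nor estradiol. A further 4 rats had the same hypoxia without estradiol, and their values are set beside the others for some genes and lists. In what follows, "with estradiol" always means hypoxia with estradiol. The last 4 rats had hypoxia, estradiol and the estrogen receptor antagonist fulvestrant at 3 mg/kg/day, and they only help to estimate the spread. The labels give no ages and do not say whether normoxia or hypoxia rats carried pumps. No group had estradiol at normal oxygen, so in a comparison with normoxia low oxygen and estradiol cannot be told apart.

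Chronic hypoxia constricts and remodels the small arteries of the lung, so that pressure in the pulmonary artery rises and the right ventricle thickens. Cells sense low oxygen through prolyl hydroxylases, which in normal air mark the alpha subunits of hypoxia-inducible factors (HIF) for destruction. Stabilised HIF raises genes of glucose uptake, glycolysis, mitophagy and vessel growth. Estradiol acts through the nuclear receptors Esr1 and Esr2 and the membrane receptor Gper1, and in rodents with hypoxic pulmonary hypertension it is known for lessening the vascular changes.

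RNA came from the saline-flushed right lung, and values are log2 signals after RMA, on which a difference of 1 is 2-fold. Lung markers were near the top of the scale in both groups, for example the surfactant gene Sftpc at 13.97 in normoxia and 13.92 with estradiol, and the endothelial gene Pecam1 at 12.46 and 12.66. Blood genes were present despite the flush: Hbb was at 11.44 in normoxia and 12.35 with estradiol (adjusted p = 0.324). In whole lung, fewer cells of a type and less RNA per cell cannot be told apart. Estradiol replicates 2 and 3 stood apart from the other 14 arrays on the second principal component (25.4 and 22.3 against -7.85 to 5.19), so many results are also given for estradiol replicates 1 and 4 alone. Normoxia replicate 4 is normoxia by title and hypoxia by its treatment field. It was kept as normoxia, and its first component (-19.7) lay among those of the other normoxia arrays (-20.8 to -12.0), against -2.05 to 16.3 for the 12 arrays of the hypoxic groups.

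Of 14506 genes, 756 (5.21%) differed between hypoxia with estradiol and normoxia at an adjusted p below 0.05 (limma's moderated test, Benjamini-Hochberg over all genes). Of these, 417 (2.87%) were higher and 339 (2.34%) lower. The difference was at least 1.5-fold in 251 genes (1.73%), 159 higher and 92 lower, and at least 2-fold in 50 higher and 14 lower genes. Arrays of the groups did not overlap for 668 of the 756, and for 1336 (9.21%) of all genes. Replicates 1 and 4 alone gave 325 calls (2.24%), 265 of them shared with the 756. Counting normoxia replicate 4 as hypoxia gave 171 higher and 180 lower, 301 of them shared. Hypoxia without estradiol differed from the same normoxia arrays at 817 genes (5.63%), 465 higher (3.21%) and 352 lower (2.43%), and since the normoxia arrays are shared, the overlap of these calls was not used.

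The highest signal gain was in Ntrk2, which encodes the neurotrophin receptor TrkB. Its log2 signal was 7.48, 8.04, 7.10 and 7.95 in normoxia and 11.39, 11.35, 11.06 and 11.30 with estradiol. All 4 estradiol arrays lay far above all normoxia arrays. The gain was 12.4-fold (log2 3.63, SE 0.16, adjusted p = 3.65e-09), and the mean was 11.28 both in hypoxia alone and with estradiol. Bdnf, its ligand, was also higher (0.34, adjusted p = 0.0183), the other gene past the threshold among 7 of the neurotrophin family.

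Bmp2, a bone morphogenetic protein made by vessel and airway cells, read 7.64, 7.97, 7.76 and 7.63 in normoxia and 9.40, 10.07, 9.72 and 9.76 with estradiol. It was 3.97-fold higher (log2 1.99, SE 0.13, adjusted p = 3.54e-07). Frzb, a secreted Wnt antagonist, read 8.44, 7.53, 7.61 and 8.50 in normoxia and 10.03, 10.32, 10.02 and 10.03 with estradiol. In both genes the groups were well apart, and the normoxia arrays of Frzb fell into a higher and a lower pair. The Frzb difference was 2.08 (SE 0.22, adjusted p = 4.58e-05). Among solute carriers, Slc26a10 rose by 1.94 (SE 0.11, adjusted p = 6.24e-08) and the anion exchanger Slc26a4, or pendrin, by 2.17 (SE 0.42, adjusted p = 0.00827). Slc26a4 lost the call in replicates 1 and 4 alone (1.80, adjusted p = 0.0677). Its estradiol arrays were 8.88, 8.72, 10.15 and 8.54, with replicate 3 the highest.

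The large gains of Apold1 and Atf3 were uneven between estradiol arrays. Replicates 2 and 3 were the highest, but replicate 3 lay nearer to replicate 1 than to replicate 2. Apold1, an endothelial gene induced rapidly by ischemia, was at 6.88 to 7.03 in normoxia and at 8.67, 10.93, 9.29 and 7.95 with estradiol (log2 2.26, adjusted p = 0.00468). The stress transcription factor Atf3 was at 8.67 to 9.00 in normoxia and at 9.99, 12.63, 11.26 and 9.28 with estradiol (1.92, adjusted p = 0.0312). Replicate 2 was the highest array and replicate 4 the lowest estradiol array in both genes. Apold1 kept a difference of 1.36 (adjusted p = 0.000966) in replicates 1 and 4 alone, while Atf3 was at 0.77 (adjusted p = 0.13). Leaving out estradiol replicate 2 alone took Atf3 to 1.31, a 1.53-fold move, and it lost the call without estradiol replicate 3 or any 1 of the 4 normoxia arrays (highest adjusted p 0.0868, without estradiol replicate 3). The acute-phase protease inhibitor Serpina3n gained 2.79 (SE 0.69, adjusted p = 0.0288). It was at 3.12 without estradiol replicate 4 and at 2.34 (adjusted p = 0.22) in replicates 1 and 4 alone. Its call was lost without any 1 of estradiol replicates 1 to 3 or normoxia replicates 1 to 3 (highest adjusted p 0.0816, log2 2.59, without estradiol replicate 3).

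The rest of the 12 highest were Amd1, an enzyme of polyamine synthesis (log2 1.64), the monocyte attractant Ccl2 (1.61), the kininogen Kng2 (1.60) and the clock repressor Bhlhe41 (1.49). Their adjusted p values lay between 0.000376 (Ccl2) and 0.00315 (Bhlhe41). Bhlhe41 had an adjusted p of 0.0545 in replicates 1 and 4 alone (1.08).

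The deepest fall was in Cyp1a1, a cytochrome P450 that oxidises polycyclic hydrocarbons and estradiol and is induced through the aryl hydrocarbon receptor. It read 10.10, 10.84, 10.49 and 10.67 in normoxia and 6.01, 7.04, 6.29 and 9.40 with estradiol. In 3 of the 4 estradiol arrays the signal was far below normoxia, while replicate 4 came close to it. The mean difference was 10.1-fold (log2 -3.34, SE 0.58, adjusted p = 0.00374) and moved 1.67-fold, to -4.07, without estradiol replicate 4. The value for replicates 1 and 4 alone was -2.82 (adjusted p = 0.0565).

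Lyve1 binds hyaluronan and marks lymphatic vessels and a class of macrophages, and it fell 4.29-fold. Its arrays read 12.87, 12.57, 12.63 and 12.47 in normoxia and 10.42, 10.93, 10.46 and 10.34 with estradiol (log2 -2.10, SE 0.12, adjusted p = 6.24e-08). The groups were separated by more than the whole range of either. The Notch ligand Dll4, which restrains vessel sprouting, read 11.57, 11.37, 11.41 and 11.46 in normoxia and 10.01, 10.05, 9.69 and 10.10 with estradiol (log2 -1.49, SE 0.11, adjusted p = 8.58e-07). Npr3, the clearance receptor for natriuretic peptides, read 10.61, 9.94, 10.23 and 9.90 in normoxia and 8.17, 9.17, 8.28 and 8.34 with estradiol. Its estradiol replicate 2 was the highest of the 4 and still below every normoxia array (-1.68, SE 0.24, adjusted p = 0.00067).

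Also among the 12 lowest were Hpgd, which inactivates prostaglandins (log2 -1.50), and Vipr1, a receptor for vasoactive intestinal peptide (-1.30). The Wnt receptor Fzd8 (-1.28), the matrix protein Spon2 (-1.24), Cacng3 of the family of calcium channel gamma subunits (-1.15) and the adhesion molecule Opcml (-1.10) fell as well. Adjusted p values of these 6 ran from 5.85e-05 (Opcml) to 0.00906 (Cacng3). The efflux pump Abcb1b (-1.79, adjusted p = 0.0253) lost the call without estradiol replicate 1 or 3 or normoxia replicate 1 or 3 (highest adjusted p 0.0867, log2 -1.54, without normoxia replicate 1). Lrat, which esterifies retinol (-1.06, adjusted p = 0.024), lost it without estradiol replicate 2 or normoxia replicate 2 or 3 (highest adjusted p 0.0711, without normoxia replicate 2), and stood at -0.56 (adjusted p = 0.202) in replicates 1 and 4 alone.

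**Figure D1:**
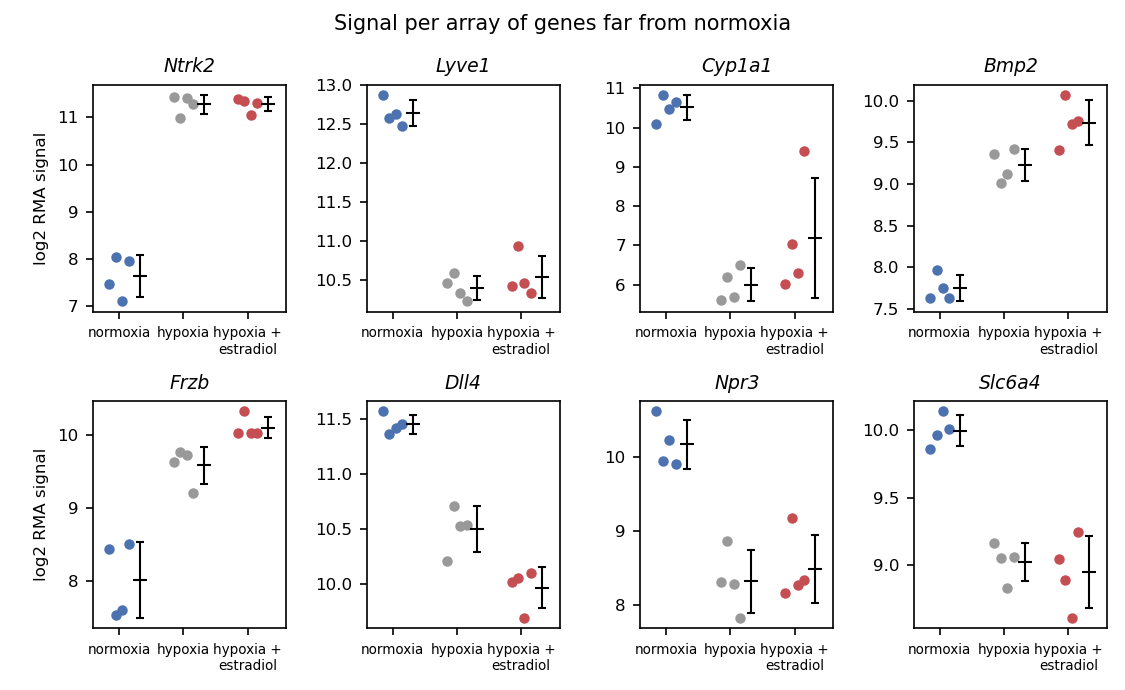
Log2 RMA signal of 8 genes far from normoxia, 1 point per array in normoxia, hypoxia and hypoxia with estradiol, with the mean and SD of each group (4 arrays) as a bar; the vertical axes differ between genes and do not start at 0. Ntrk2 sits near 11.3 in both hypoxic groups, and the Cyp1a1 array of estradiol replicate 4 lies at 9.40, above its 3 partners. No estradiol array reaches the normoxia range, which was a condition of the rule by which most of these genes were named.

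Over gene lists, calls were unevenly spread. Of 44 lists, 29 had at least 3 measured members past the threshold, 16 in replicates 1 and 4 alone. Across all genes 2.87% were higher, 2.34% lower and the median difference was 0.00, and each list is to be read against these values. Some genes stand in more than 1 list. Calls lost on omission of 1 array are reported only for genes named by the rule given under processing. For other list members, silence on this does not mean that the call held.

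**Figure D2:**
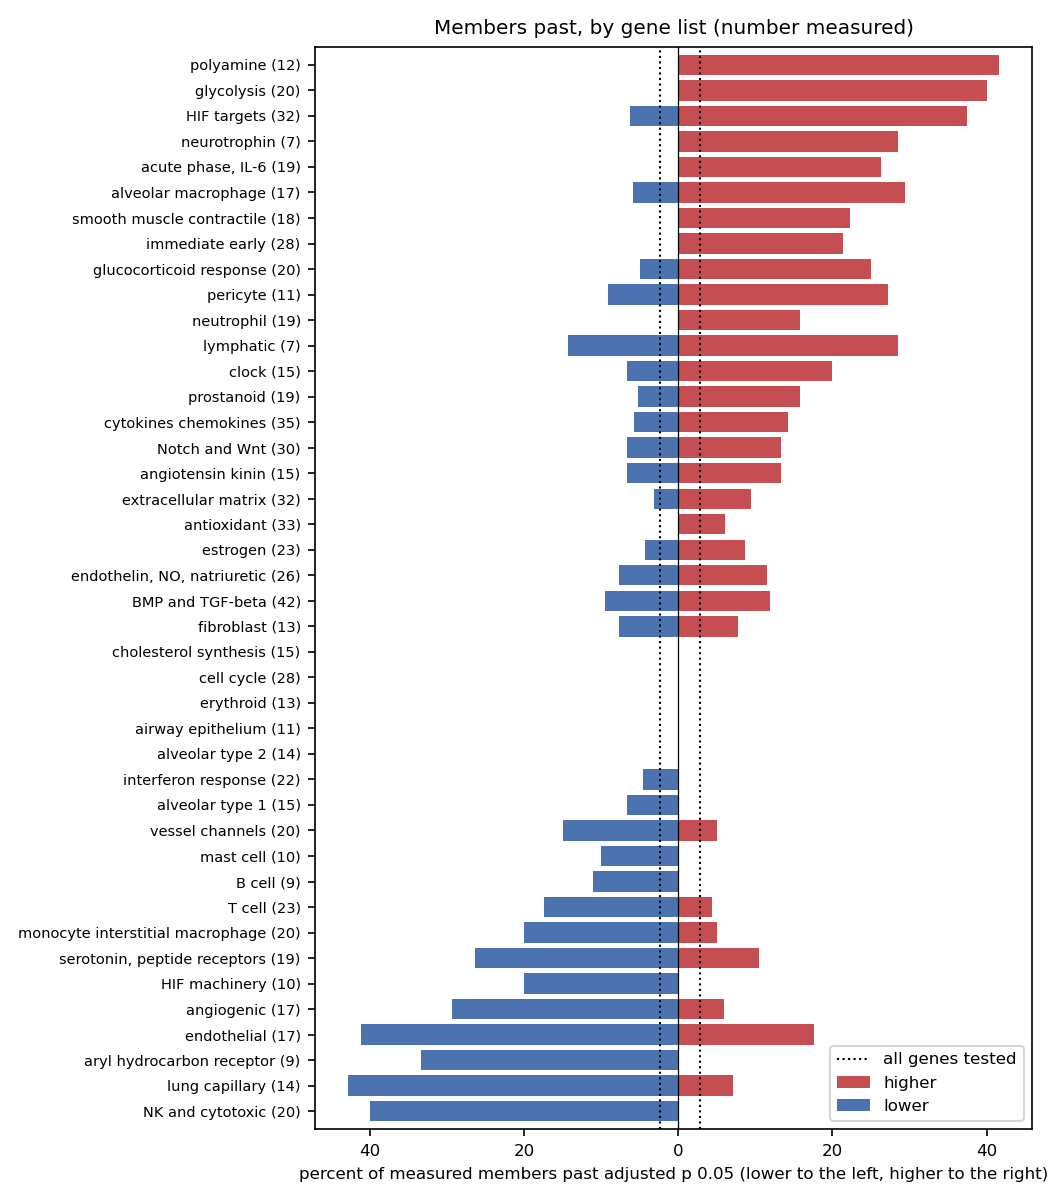
Share of the measured members of each list that passed an adjusted p of 0.05 in hypoxia with estradiol against normoxia, lower to the left and higher to the right, for lists with at least 7 measured members (numbers in brackets). Dotted lines mark the shares over all genes tested, 2.34% lower and 2.87% higher. Polyamine, glycolysis and HIF target genes lie farthest to the right, and lung capillary, endothelial and natural killer genes farthest to the left.

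In glucose use, 8 of 20 genes of glycolysis rose and 0 fell, with a median difference of 0.26 over the list. The lactate exporter Slc16a3 was highest, at 8.92, 8.79, 8.82 and 8.83 in normoxia and 9.93, 10.64, 10.70 and 9.81 with estradiol (log2 1.43, SE 0.18, adjusted p = 0.000234). All its estradiol arrays exceeded normoxia, replicates 2 and 3 by the most. The glucose transporter Slc2a1 rose by 0.74 (adjusted p = 0.00315), and the enzymes Aldoc (1.0), Pfkl (0.72), Tpi1 (0.62), Hk2 (0.56), Ldha (0.40) and Aldoa (0.25) rose too. The same median of 0.26 was found in replicates 1 and 4 alone, where 6 of the 20 passed. Hk2 did not pass there (0.35, adjusted p = 0.248). Averaged over the list, estradiol replicates 1 to 4 stood 0.41, 0.44, 0.39 and 0.35 above the normoxia mean, with no split between the arrays. In hypoxia alone 9 of the 20 were higher than in the same normoxia arrays (median 0.20).

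Of 32 other targets of HIF 12 rose and 2 fell, with a median of 0.29. Risers included Mgarp, a mitochondrial protein (log2 1.35, adjusted p = 0.00356), the haem-degrading Hmox1 (1.10, adjusted p = 0.0163), the clock repressor Bhlhe40 (1.10, adjusted p = 0.0135), the inhibitor of mTOR signalling Ddit4 (0.91, adjusted p = 0.0262) and the mitophagy gene Bnip3 (0.80, adjusted p = 9.42e-05). Smaller rises were in Plod2 (0.53), Cxcl12 (0.52), the pyruvate dehydrogenase kinase Pdk1 (0.43), Higd1a (0.43), Ndrg1 (0.42), the collagen hydroxylase P4ha1 (0.32) and Cited2 (0.30). The fallers were the peptide ligand Apln (-0.84) and Angptl4, an inhibitor of lipoprotein lipase (-0.80, adjusted p = 0.0383). In replicates 1 and 4 alone 8 rose and 1 fell. Omission of normoxia replicate 1 ended the call of Hmox1 (1.04, adjusted p = 0.0542). Ddit4 lost its call in 6 of the 8 fits with 1 array omitted (highest adjusted p 0.0821, 0.82, without normoxia replicate 2) and Angptl4 in 5 (highest adjusted p 0.107, -0.67, without estradiol replicate 2). With normoxia replicate 4 counted as hypoxia 1 HIF target was higher and 2 lower, while 7 of the glycolysis genes were higher. Vegfa, the classical HIF target, read 12.39, 12.48, 12.41 and 12.29 in normoxia and 12.16, 12.31, 11.99 and 12.21 with estradiol. Its groups overlapped and it did not pass (-0.23, adjusted p = 0.0607).

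ACGTG is a core sequence at which HIF binds DNA, and other forms of its site were not counted here. In RefSeq promoter windows of rat genome GRCr8, from 250 bases before to 50 after the start of a gene, ACGTG on either strand was found in 22.3% of the 11950 windows of tested genes and in 19.7% of all 27457 windows. It was found in 18 of the 25 HIF targets with a window, and in 9 of the 10 that rose and had one. This list was drawn up from known HIF targets, so the motif is not independent of it. Of the 19 glycolysis genes with a window 10 had a match, 3 of the 8 that rose. The windows of 4 genes that rose are shown to place these matches, each read 5′ to 3′ on the strand of the gene. Bnip3 is at chr1:203154913-203155212 (minus strand), Pdk1 at chr3:77113264-77113563 (plus), Bhlhe40 at chr4:143174200-143174499 (plus) and Slc2a1 at chr5:138002272-138002571 (plus). Capitals mark the motif on either strand. Where it overlaps itself on opposite strands the stretch counts as 2 matches.
Bnip3: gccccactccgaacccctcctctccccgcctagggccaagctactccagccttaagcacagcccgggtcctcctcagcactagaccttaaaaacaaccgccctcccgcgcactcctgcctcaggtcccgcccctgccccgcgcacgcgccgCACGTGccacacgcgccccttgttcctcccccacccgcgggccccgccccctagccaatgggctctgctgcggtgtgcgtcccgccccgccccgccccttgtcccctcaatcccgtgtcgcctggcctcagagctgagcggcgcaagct
Pdk1: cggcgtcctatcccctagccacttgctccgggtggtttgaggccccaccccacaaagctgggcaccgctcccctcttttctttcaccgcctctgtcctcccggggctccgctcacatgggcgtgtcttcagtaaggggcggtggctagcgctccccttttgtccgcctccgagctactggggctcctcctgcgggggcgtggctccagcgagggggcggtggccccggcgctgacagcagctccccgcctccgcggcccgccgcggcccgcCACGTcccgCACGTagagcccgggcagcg
Bhlhe40: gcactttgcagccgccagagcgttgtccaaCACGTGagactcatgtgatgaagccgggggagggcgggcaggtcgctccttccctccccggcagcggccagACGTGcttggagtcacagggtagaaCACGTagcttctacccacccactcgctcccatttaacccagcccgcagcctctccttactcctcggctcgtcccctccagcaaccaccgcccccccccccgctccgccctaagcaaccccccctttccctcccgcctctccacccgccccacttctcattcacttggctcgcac
Slc2a1: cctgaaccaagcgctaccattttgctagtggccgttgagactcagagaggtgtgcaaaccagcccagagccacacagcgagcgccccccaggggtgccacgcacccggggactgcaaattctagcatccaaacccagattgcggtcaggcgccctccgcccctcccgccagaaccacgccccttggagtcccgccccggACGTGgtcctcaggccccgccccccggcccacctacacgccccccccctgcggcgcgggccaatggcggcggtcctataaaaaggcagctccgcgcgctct

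The Bhlhe40 window held 4 matches, the Bnip3 and Pdk1 windows 2 each and the Slc2a1 window 1. Bhlhe40 itself read 11.10, 11.21, 10.95 and 10.74 in normoxia and 12.54, 12.51, 11.99 and 11.35 with estradiol, where replicate 4 was nearest to normoxia. It did not pass in replicates 1 and 4 alone (0.94, adjusted p = 0.117). Of 10 genes of the oxygen-sensing machinery 0 rose and 2 fell, the subunit Epas1 (-0.23, adjusted p = 0.0267) and Arnt2, a partner protein (-0.35, adjusted p = 0.0128). In this list 2 were higher and 2 lower at an unadjusted limma p below 0.05. Arnt2 also belongs to the aryl hydrocarbon receptor list, in which 3 of 9 genes fell and 0 rose. Ahr, the receptor, read 10.44, 10.91, 10.60 and 10.41 in normoxia and 10.01, 9.99, 10.02 and 10.02 with estradiol, a tight group below all normoxia arrays (-0.58, SE 0.09, adjusted p = 0.00164).

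In BMP and transforming growth factor beta signalling 5 of 42 genes rose and 4 fell (median -0.02). Besides Bmp2, the activin subunit Inhba (log2 0.47), the BMP antagonist Grem1 (0.60), the receptor Tgfbr1 (0.44, adjusted p = 0.0338) and the activin antagonist Fstl3 (0.38, adjusted p = 0.00931) rose. Bmp6, a ligand that endothelium makes, fell by 0.51 (adjusted p = 0.000756), as did the inhibitory Smad6 (-0.55, adjusted p = 0.0356), the coreceptor Eng (-0.28, adjusted p = 0.0409) and the ligand Gdf10 (-0.25, adjusted p = 0.0175). Smad6 lost its call in 5 of the 8 fits that left out 1 array (highest adjusted p 0.109, -0.49, without normoxia replicate 1). In replicates 1 and 4 alone 4 of the 42 genes were higher and 2 lower. With normoxia replicate 4 counted as hypoxia 1 was higher and 1 lower. Bmpr2, a BMP receptor whose mutations cause heritable pulmonary hypertension, was at 12.96 to 13.05 in normoxia and 12.74 to 12.88 with estradiol. The arrays did not overlap, yet the difference did not pass (-0.19, adjusted p = 0.0966).

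In Notch and Wnt signalling 4 of 30 genes rose and 2 fell (median 0.03). Frzb, the Notch ligand Jag2 (log2 0.83, adjusted p = 0.00415), Wnt5b (0.74, adjusted p = 0.0154) and the Wnt modulator Dkk3 (0.46, adjusted p = 0.0125) rose, while Dll4 and the Wnt target Axin2 (-0.61, adjusted p = 0.0208) fell. The Notch ligands Jag2 and Dll4 thus moved apart. Omission of normoxia replicate 2 ended the call of Wnt5b (0.68, adjusted p = 0.0521), and that of Axin2 ended on omission of estradiol replicate 3 or of normoxia replicate 1 (highest adjusted p 0.0745, -0.52).

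Among genes of vessel tone, the nitric oxide and natriuretic list held 3 of 26 higher and 2 lower (median -0.05). The inducible synthase Nos2 read 7.53, 7.12, 7.14 and 7.37 in normoxia and 8.15, 9.74, 8.73 and 7.94 with estradiol (log2 1.35, SE 0.27, adjusted p = 0.00913), with replicate 2 far above the rest. In replicates 1 and 4 alone the difference was 0.76 (adjusted p = 0.0105). The endothelial synthase Nos3 (0.37, adjusted p = 0.0119) and the arginase Arg1, which competes for arginine (0.86, adjusted p = 0.0018), were also higher. Npr3 and Ddah1, which breaks down an inhibitor of these synthases (-0.33, adjusted p = 0.0224), were lower. Ddah1 lost the call in 5 of 8 fits without 1 array (highest adjusted p 0.0646, -0.29, without estradiol replicate 2). Edn1, the vasoconstrictor endothelin, read 11.34, 10.09, 10.60 and 10.29 in normoxia and 11.85, 11.43, 10.06 and 11.51 with estradiol. Its groups overlapped, since estradiol replicate 3 was the lowest of the 8 arrays, and no difference was called (0.63, SE 0.37, adjusted p = 0.411).

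Of 15 genes of the angiotensin and kinin systems the kininogens Kng1 (log2 1.14, adjusted p = 0.00736) and Kng2 rose, and Ace, which makes angiotensin II and degrades bradykinin, fell (-0.31, adjusted p = 0.00537). Ace read 13.03 to 13.19 in normoxia and 12.70 to 12.84 with estradiol. Kininogens are the precursors of bradykinin. Among 19 prostanoid genes 3 rose, the synthases Ptges (0.73, adjusted p = 0.00621) and Ptgis, which makes prostacyclin (0.61, adjusted p = 0.00462), and the cyclooxygenase Ptgs2 (0.65, adjusted p = 0.0399). Hpgd, which degrades prostaglandins, was the 1 that fell, from 10.74, 11.07, 10.68 and 10.79 to 9.26, 8.89, 9.43 and 9.71. Ptgs2 lost its call in 7 of the 8 fits without 1 array (highest adjusted p 0.11, 0.52, without estradiol replicate 2).

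Receptors and transporters of serotonin and vasodilator peptides were mostly lower where they passed. Of 19 genes 2 rose and 5 fell (median -0.15). The serotonin transporter Slc6a4, which takes up serotonin in lung vessels, read 9.87, 9.96, 10.14 and 10.01 in normoxia and 9.05, 8.89, 8.61 and 9.25 with estradiol (log2 -1.05, SE 0.12, adjusted p = 9.42e-05). All estradiol arrays lay below all normoxia arrays. The serotonin-degrading Maob (-0.54, adjusted p = 0.014), both receptors for vasoactive intestinal peptide, Vipr1 and Vipr2 (-0.70, adjusted p = 0.000348), and Calcrl, the receptor for adrenomedullin (-0.26, adjusted p = 0.0316), fell. Its partner Ramp3 rose (0.71, adjusted p = 0.0212), as did Ackr3, a scavenging receptor (0.43, adjusted p = 0.00639). Ramp3 lost the call in 4 of 8 fits without 1 array (highest adjusted p 0.0554, 0.65, without normoxia replicate 4).

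Of 20 ion channel genes of vessels 1 rose and 3 fell. Trpc6, a calcium-permeable channel of arterial smooth muscle, read 8.33, 8.29, 8.36 and 8.44 in normoxia and 8.98, 8.76, 8.65 and 9.12 with estradiol (log2 0.52, adjusted p = 0.0078). The calcium channel subunit Cacnb2 (-0.35, adjusted p = 0.00535), the cation channel Trpm4 (-0.35, adjusted p = 0.0118) and the potassium channel Kcnq5 (-0.37, adjusted p = 0.0374) fell. Kcnq5 lost its call in 6 of 8 fits without 1 array (highest adjusted p 0.121, -0.31, without normoxia replicate 1).

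Of 14 markers of lung capillary endothelium 6 fell and 1 rose, with a median of -0.33. The count of lower members was also 6 in replicates 1 and 4 alone and 6 with normoxia replicate 4 counted as hypoxia. Plvap, a component of endothelial diaphragms, read 12.91, 12.75, 12.77 and 12.70 in normoxia and 11.88, 11.83, 11.74 and 12.14 with estradiol (log2 -0.88, SE 0.08, adjusted p = 1.8e-05). The receptor tyrosine kinase Kit read 10.78, 10.56, 10.60 and 10.59 in normoxia and 9.99, 9.75, 9.72 and 10.07 with estradiol (-0.75, adjusted p = 0.000126). Neither gene overlapped between groups, and in both estradiol replicate 4 was nearest to normoxia. The carbonic anhydrase Car4 (-0.49, adjusted p = 0.00105), Cyp4b1 (-0.51, adjusted p = 0.000603), Apln and Hpgd were the other fallers. The sodium channel Scn7a rose (0.72, adjusted p = 0.0334) but overlapped normoxia and lost its call in 5 of 8 fits without 1 array (highest adjusted p 0.109, 0.59, without normoxia replicate 1). Set against the normoxia mean, the average of the list was -0.28, -0.28, -0.54 and -0.15 in estradiol replicates 1 to 4, and -0.04 to -0.14 in the 4 arrays of hypoxia alone.

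Among 17 general endothelial markers 3 rose and 7 fell (median -0.11). The receptor Kdr, which binds VEGF, was at 12.18 to 12.25 in normoxia and 11.46 to 11.87 with estradiol (log2 -0.49, adjusted p = 0.00124). Clec14a (-0.63, adjusted p = 0.000685), the transcription factor Sox18 (-0.75, adjusted p = 0.0365), Flt1 (-0.28), Tek, the angiopoietin receptor (-0.32), Erg (-0.32) and Eng fell too, while Emcn (0.64, adjusted p = 0.00095), Egfl7 (0.50, adjusted p = 0.0267) and Robo4 (0.40) rose. In replicates 1 and 4 alone 3 rose and 2 fell. Sox18 was at 10.51, 9.61, 9.55 and 10.63 in the estradiol arrays, low in replicates 2 and 3 and near normoxia (10.66 to 10.96) in the others, and stood at -0.25 (adjusted p = 0.272) without that pair. Sox18, Tek and Egfl7 lost their calls in 5, 6 and 5 of the 8 fits without 1 array (highest adjusted p 0.104, 0.126 and 0.07).

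In the angiogenic list 1 of 17 genes rose and 5 fell. The riser was Pgf, a placental growth factor of the VEGF family, at 8.30, 8.03, 7.97 and 8.08 in normoxia and 9.32, 9.21, 9.22 and 9.09 with estradiol (log2 1.11, SE 0.09, adjusted p = 2.77e-06). The VEGF receptors Flt1 and Kdr were among the fallers. In replicates 1 and 4 alone 2 of the 17 were higher and 2 lower, and with normoxia replicate 4 counted as hypoxia 1 was higher and 3 lower. Of 7 lymphatic markers Lyve1 fell, and the chemokine Ccl21 (0.86, adjusted p = 0.000926) and Reln (0.62, adjusted p = 0.00308) rose.

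Of 18 smooth muscle contractile genes 4 rose and 0 fell (median 0.24), the intermediate filament Des (log2 0.69, adjusted p = 0.00182), tropomyosin Tpm2 (0.52, adjusted p = 0.0274), Smtn (0.44, adjusted p = 0.0256) and calponin Cnn1 (0.41, adjusted p = 0.0457). Des read 11.04, 11.16, 11.21 and 11.54 in normoxia and 11.78, 12.07, 11.88 and 11.99 with estradiol, with no overlap. Replicates 1 and 4 alone kept 2 calls. Tpm2, Smtn and Cnn1 lost theirs in 4, 3 and 7 of the 8 fits without 1 array (highest adjusted p 0.0893, 0.0785 and 0.148). Actin Acta2 was at 0.11 (adjusted p = 0.368) and myosin Myh11 at 0.26 (adjusted p = 0.312). In hypoxia alone 7 of the 18 genes were higher than in the same normoxia arrays (median 0.23).

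Of 11 pericyte markers 3 rose, Trpc6, the proteoglycan Cspg4 (log2 0.33, adjusted p = 0.0399) and Higd1b (0.25, adjusted p = 0.0448), and Postn fell (-0.32, adjusted p = 0.0389). Cspg4, Higd1b and Postn lost their calls in 7, 6 and 5 of the 8 fits without 1 array (highest adjusted p 0.0925, 0.143 and 0.121). Of 32 matrix genes 3 rose and 1 fell, and the median of 0.03 was near that of all genes. The risers were Ccn2, a matricellular factor (0.96, SE 0.12, adjusted p = 0.000338), the basement membrane collagen Col4a1 (0.53, adjusted p = 0.00238) and Plod2, which hydroxylates collagen lysines (0.53, adjusted p = 0.0142). Ccn2 read 10.83, 10.71, 11.06 and 10.87 in normoxia and 11.77, 12.01, 11.84 and 11.69 with estradiol. The fibrillar collagens Col1a1 (-0.01, adjusted p = 0.991) and Col3a1 (-0.31, adjusted p = 0.363) did not pass. Against the same normoxia arrays, hypoxia alone had 9 of the 32 matrix genes higher and a median of 0.30. Tested directly in limma, hypoxia with estradiol had 2 of the 32 lower than hypoxia alone and 0 higher (median -0.225). Over all genes 0.462% were lower in that test.

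Among lymphocyte lists, the natural killer and cytotoxic list held 20 genes, of which 8 fell and 0 rose (median -0.50), and 7 fell in replicates 1 and 4 alone. The granzyme Gzma read 9.83, 9.88, 9.56 and 9.61 in normoxia and 8.78, 9.01, 9.04 and 8.51 with estradiol (log2 -0.89, SE 0.18, adjusted p = 0.0121). Perforin, Prf1, read 10.52, 10.71, 10.12 and 10.45 in normoxia and 9.85, 9.51, 9.73 and 9.45 with estradiol (-0.81, adjusted p = 0.00616). Both were below normoxia in every estradiol array. The transcription factor Tbx21 (-0.79, adjusted p = 0.00616), the receptors Klrk1 (-0.60, adjusted p = 0.0126) and Klrb1a (-0.59, adjusted p = 0.0265), Il2rb (-0.57), Ccl5 (-0.56) and Klrd1 (-0.54) fell too. Klrb1a overlapped normoxia and lost its call in 4 of 8 fits without 1 array (highest adjusted p 0.0877, -0.50, without normoxia replicate 2). Treating normoxia replicate 4 as hypoxia left 1 of the 20 past the threshold. In hypoxia alone 15 of the 20 were lower than in the same normoxia arrays (median -0.72). Tested directly in limma, hypoxia with estradiol differed from hypoxia alone at 0 of the 20 (median 0.24).

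Of 23 T cell genes 4 fell and 1 rose (median -0.33), and 0 passed in limma in replicates 1 and 4 alone (1 higher and 10 lower at an unadjusted p below 0.05), where the median was -0.30. The fallers were the transcription factor Tcf7 (log2 -0.54, adjusted p = 0.0101), the homing receptor Ccr7 (-0.50, adjusted p = 0.0316), Cd27 (-0.43, adjusted p = 0.0358) and the kinase Zap70 (-0.30, adjusted p = 0.0366). The costimulator Icos rose (0.47, adjusted p = 0.0235). Ccr7, Cd27, Zap70 and Icos lost their calls in 5, 5, 6 and 4 of the 8 fits without 1 array (highest adjusted p 0.103, 0.107, 0.119 and 0.0742). In hypoxia alone 13 of the 23 T cell genes were lower than in the same normoxia arrays (median -0.44). Of 9 B cell genes Pou2af1 fell (-0.50, adjusted p = 0.0265).

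Of 17 alveolar macrophage genes 5 rose and 1 fell, Car4 (median 0.47). The lipid regulator Pparg read 8.96, 9.21, 9.01 and 8.80 in normoxia and 9.91, 9.80, 10.00 and 9.62 with estradiol (log2 0.84, SE 0.11, adjusted p = 0.000348). The chitinase-like Chi3l1 (0.89, adjusted p = 0.0213), Gpnmb (0.84, adjusted p = 0.0359), the cathepsin Ctsk (0.76, adjusted p = 0.0481) and the mannose receptor Mrc1 (0.66, adjusted p = 0.000405) rose. Pparg and Mrc1 passed in all fits without 1 array, while Chi3l1, Gpnmb and Ctsk lost their calls in 3, 6 and 6 of 8 (highest adjusted p 0.0673, 0.115 and 0.14). In replicates 1 and 4 alone 2 of the 17 were higher and 2 lower (median 0.41). Of 20 genes of monocytes and interstitial macrophages 4 fell, Lyve1, the fractalkine receptor Cx3cr1 (-0.74, adjusted p = 0.00178), Adgre1 (-0.34, adjusted p = 0.0481) and Csf1r (-0.22, adjusted p = 0.0481), and the complement gene C1qb rose (0.34, adjusted p = 0.0333). Adgre1, Csf1r and C1qb lost their calls in 7, 7 and 5 of 8 fits without 1 array (highest adjusted p 0.147, 0.142 and 0.0954). In replicates 1 and 4 alone 2 of the 20 were lower past the threshold in limma and 0 higher.

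The mean of 19 neutrophil genes was above every normoxia array in all 4 estradiol arrays, and highest in replicates 2 and 3. Each of the 19 had a positive difference (median 0.74), 3 passed and 10 had an unadjusted p below 0.05. Averaged over the list, estradiol replicates 1 to 4 stood 0.41, 1.16, 0.94 and 0.27 above the normoxia mean, and the normoxia arrays were at -0.29 to 0.21. The arrays of hypoxia alone were at -0.07, -0.30, -0.64 and -0.26. Tested directly in limma, 8 of the 19 were higher with estradiol than in hypoxia alone, against 0.31% of all genes. Without estradiol replicates 2 and 3 that test called 0 of all genes (1335 at an unadjusted p below 0.05). S100a8, a subunit of calprotectin, read 6.80, 6.40, 6.45 and 7.0 in normoxia and 7.33, 8.51, 8.35 and 7.24 with estradiol (log2 1.19, SE 0.27, adjusted p = 0.0193). Its partner S100a9 read 10.07, 9.57, 9.32 and 10.38 in normoxia and 10.44, 11.33, 11.54 and 10.38 with estradiol (1.09, adjusted p = 0.0524). For S100a8 replicates 1 and 4 lay just above the highest normoxia array, while for S100a9 replicate 4 was level with it. The IgA receptor Fcar (1.26, adjusted p = 0.0391) and the activating receptor Trem1 (0.87, adjusted p = 0.0147) rose. In replicates 1 and 4 alone 0 of the 19 passed in limma (4 higher at an unadjusted p below 0.05) and the median was 0.31. S100a8 and Fcar lost their calls in 3 and 6 of 8 fits without 1 array (highest adjusted p 0.0612 and 0.0942).

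Immediate early genes, which cells switch on within minutes of a stimulus, showed the same division of arrays. Their average stood 0.30, 1.45, 0.77 and 0.24 over the normoxia mean in estradiol replicates 1 to 4. In replicates 1 to 4 of hypoxia alone it stood 0.21, 0.64, 0.02 and 0.15 over that mean, so replicate 2 exceeded estradiol replicates 1 and 4. Of 28 genes 6 rose and 0 fell (median 0.61), and in replicates 1 and 4 alone 0 passed in limma (10 higher at an unadjusted p below 0.05, median 0.23). Csrnp1 read 9.51 to 9.86 in normoxia and 9.99, 11.59, 10.72 and 9.98 with estradiol (log2 0.94, adjusted p = 0.0439). The estradiol arrays were above normoxia, 2 of them by little. Besides Atf3 the risers were Junb (0.94, adjusted p = 0.0352), Ier3 (0.87, adjusted p = 0.0334), Myc (0.65, adjusted p = 0.0129) and Jun (0.46, adjusted p = 0.0312). Csrnp1, Junb and Ier3 each lost the call in 6 of the 8 fits without 1 array (highest adjusted p 0.107, 0.103 and 0.0982). Fos read 7.89, 8.15, 7.63 and 7.92 in normoxia and 8.20, 10.76, 9.74 and 8.64 with estradiol and did not pass (1.44, SE 0.47, adjusted p = 0.095).

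Of 20 glucocorticoid-responsive genes 5 rose and 1 fell (median 0.44). The kinase Sgk1 was the steadiest, at 11.43, 11.42, 11.61 and 11.39 in normoxia and 12.57, 12.60, 12.25 and 12.54 with estradiol (log2 1.03, SE 0.08, adjusted p = 2.77e-06). It was also the 1 gene of the list that passed in replicates 1 and 4 alone, where the median was 0.17. The metallothioneins Mt1 (1.19, adjusted p = 0.0129) and Mt2A (1.06, adjusted p = 0.046), Ddit4 and Cebpb (0.62, adjusted p = 0.041) rose, and Angptl4 fell. Mt1 read 10.38 to 10.69 in normoxia and 11.28, 12.35, 12.18 and 11.06 with estradiol. Its difference in replicates 1 and 4 alone was 0.64 (adjusted p = 0.14). Mt2A lost its call in 6 of 8 fits without 1 array (highest adjusted p 0.139, 0.91, without normoxia replicate 2).

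Among 15 clock genes 3 rose and 1 fell (median 0.78, and 0.41 in replicates 1 and 4 alone). The repressors Per2 (log2 1.14, adjusted p = 0.0111), Bhlhe40 and Bhlhe41 rose, and the activator Npas2 fell (-0.94, adjusted p = 0.046). Per2 read 8.49, 8.67, 8.24 and 8.37 in normoxia and 10.29, 9.57, 9.10 and 9.37 with estradiol, and Npas2 read 10.50 to 10.85 in normoxia and 8.65, 10.30, 10.24 and 9.92 with estradiol. Replicate 1 was the farthest from normoxia in both. Npas2 lost its call in 5 of 8 fits without 1 array (highest adjusted p 0.117, -0.90, without normoxia replicate 2). Per1 overlapped normoxia and did not pass (0.87, adjusted p = 0.0859). The labels give no time of day at which lungs were taken, so the part of sampling time in these values was not tested. The E-box CACGTG, on either strand, was found in 3 of 14 clock promoters, against 7.88% of the windows of tested genes. This list was drawn up from known clock genes, so the motif is not independent of it. CACGTG holds ACGTG on both strands, so each E-box also counts as 2 matches of the HIF core. The CACGTG stretches shown for Bnip3 and Bhlhe40 are of this kind.

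**Figure D3:**
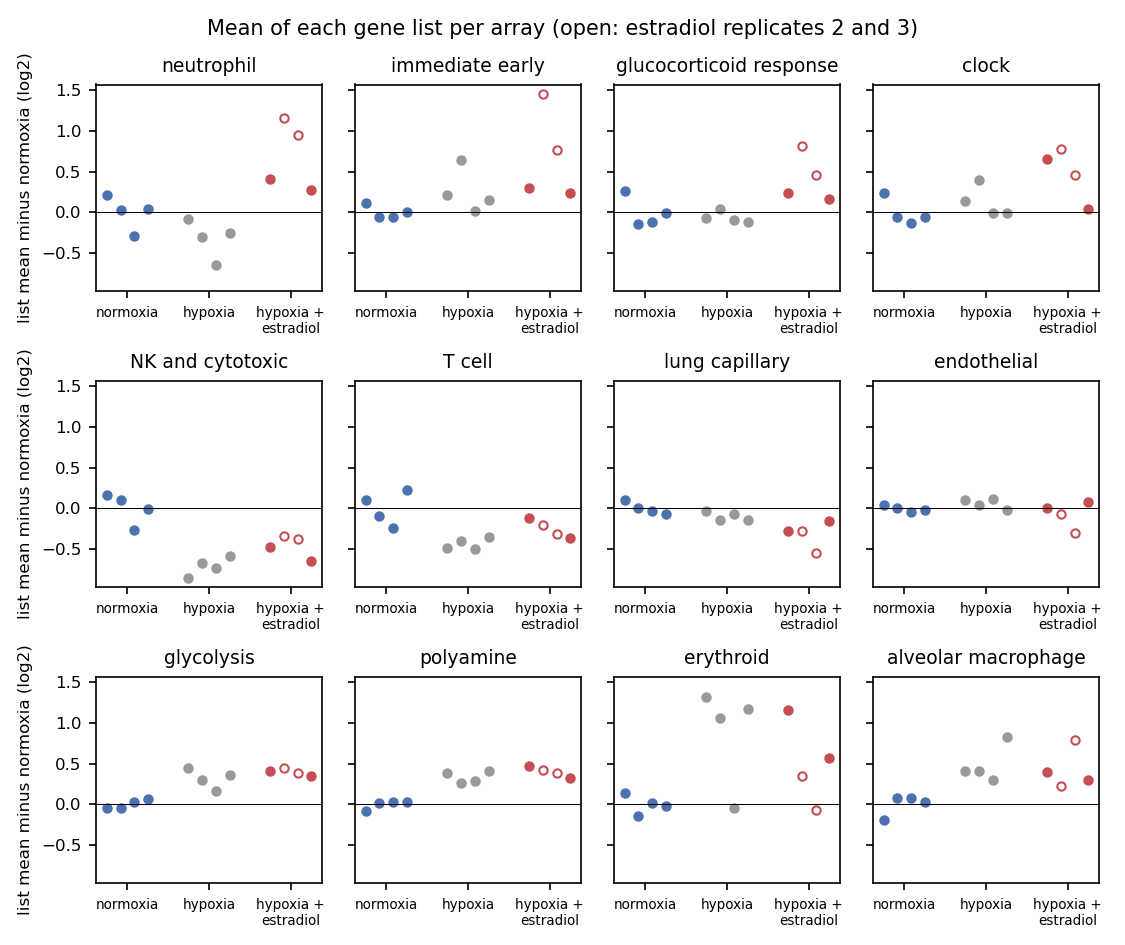
Mean difference from the normoxia mean over the members of 12 gene lists, in log2 units, 1 point per array in normoxia, hypoxia and hypoxia with estradiol; open points are estradiol replicates 2 and 3. These replicates are highest for neutrophil (1.16 and 0.94) and immediate early genes (1.45 and 0.77), while for glycolysis the 4 estradiol arrays lie together between 0.35 and 0.44.

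Of 19 acute-phase and interleukin 6 response genes 5 rose and 0 fell (median 0.47), and 4 rose in replicates 1 and 4 alone. They were Serpina3n, Kng2, Kng1, the acid glycoprotein Orm1 (log2 0.92, adjusted p = 0.0117) and the oncostatin M receptor Osmr (0.72, adjusted p = 0.0002). Osmr read 9.32 to 9.60 in normoxia and 10.05 to 10.43 with estradiol. Of 35 cytokines and chemokines 5 rose, Ccl2, Ccl9 (1.40, adjusted p = 0.046), Ccl21, Il18 (0.68, adjusted p = 0.0408) and Cxcl12 (0.52, adjusted p = 0.024), and 2 fell, the alarmin Il33 (-0.76, adjusted p = 0.00294) and the lymphocyte chemokine Ccl5. Ccl2 read 9.40, 9.61, 9.88 and 9.65 in normoxia and 10.78, 11.80, 11.55 and 10.85 with estradiol, apart from normoxia in all 4 arrays. Ccl9 and Il18 lost their calls in 7 and 6 of 8 fits without 1 array (highest adjusted p 0.13 and 0.121). Once normoxia replicate 4 was treated as hypoxia, Orm1 was the 1 acute-phase riser that passed (adjusted p = 0.0188), and Serpina3n, Osmr, Kng1 and Kng2 did not (adjusted p = 0.0724, 0.0859, 0.0941 and 0.106).

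Of 12 genes of polyamines, small cations that cells need for growth, 5 rose and 0 fell (median 0.22), and 3 rose in replicates 1 and 4 alone. Amd1 read 9.24, 9.25, 9.24 and 9.48 in normoxia and 11.30, 10.58, 10.39 and 11.51 with estradiol (log2 1.64, SE 0.22, adjusted p = 0.000408). Here replicates 2 and 3 were the nearer to normoxia. Arg1, the decarboxylase Odc1 (0.71, adjusted p = 0.0122), the acetylating enzyme Sat1 (0.50, adjusted p = 0.0472) and the regulator Azin1 (0.33, adjusted p = 0.0212) rose. Sat1 and Azin1 lost their calls in 6 and 4 of 8 fits without 1 array (highest adjusted p 0.131 and 0.0671). Of 33 antioxidant genes 2 rose, Hmox1 and the cystine transporter Slc7a11 (0.74, adjusted p = 0.0408).

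Several lists had few or no calls. In limma's test 0 genes passed of 28 cell cycle genes (6 higher at an unadjusted p below 0.05), 15 of cholesterol synthesis (5 higher), 14 of alveolar type 2 cells (0), 11 of airway epithelium (2 higher and 1 lower), 13 of erythroid cells (1 higher), 4 of platelets (0) and 5 of mesothelium (0). Of 15 alveolar type 1 genes Rtkn2 fell (log2 -0.23, adjusted p = 0.0498), of 22 interferon-responsive genes Gbp5 fell (-0.77, adjusted p = 0.00827), and of 10 mast cell genes Kit fell. Of 13 fibroblast genes Inmt rose (1.34, adjusted p = 0.0302) and Ces1d fell (-0.40, adjusted p = 0.0186). A call of 1 gene need not go with its list. Mast cell genes had a median of 0.34, with 8 of 10 positive, and interferon-responsive genes 0.08, with 16 of 22 positive. Fibroblast genes had a median of -0.13, with 4 of 13 positive, and alveolar type 1 genes -0.09, with 2 of 15 positive. Kit is also among the capillary markers. The average of the erythroid genes, set against the normoxia mean, was 1.16, 0.35, -0.06 and 0.57 for estradiol replicates 1 to 4, so its level differed between rats of the group.

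Of 23 genes of estrogen receptors, metabolism and response 2 rose, Nos3 and Ramp3, and 1 fell (median -0.01). The faller was Esr1, the alpha receptor, at 7.51, 7.88, 8.03 and 7.46 in normoxia and 7.28, 7.28, 6.92 and 7.38 with estradiol (log2 -0.51, SE 0.13, adjusted p = 0.0381). It was lower in all 4 estradiol arrays, though it lost the call in 5 of 8 fits without 1 array (highest adjusted p 0.115, -0.46, without normoxia replicate 2). In hypoxia alone its mean was 7.31, against 7.21 with estradiol (difference -0.10, adjusted p = 0.763). Esr2 (-0.05, SE 0.15, adjusted p = 0.899) and Gper1 (0.02, SE 0.11, adjusted p = 0.965) overlapped normoxia, and the sign of both small differences turned in other fits.

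A test of hypoxia with estradiol against hypoxia alone asks whether the distance from normoxia was the same with and without estradiol, since the normoxia mean cancels. It called 112 genes (0.772%), 45 higher and 67 lower. Of the 137 named genes it called 17, but some of these were named because they passed it. The 17 are therefore not to be set against the share over all genes. The number of calls varied widely with the arrays and settings used. In limma it called 0 genes without the pair (1335 at an unadjusted p below 0.05), 4 without replicate 2, 4 without replicate 3, 4 with array weights and 4 over all probe sets, against 355 without replicate 4 and 219 without replicate 1. It also called 0 with normoxia replicate 4 counted as hypoxia (1922 at an unadjusted p below 0.05). Without the pair all 17 named genes kept the sign of their difference from hypoxia alone, on which some of them had been picked. It was then -1.26 for Grem1, -0.93 for Spon2, -0.76 for Apln, -0.66 for Cx3cr1, -0.48 for Inhba and 0.43 for Mrc1, with adjusted p from 0.0533 (Grem1) to 0.218. Grem1 was the 1 named gene past the threshold without replicate 2 or without replicate 3. Spon2, Acsm5, Per1 and Robo4 also lost this call without normoxia replicate 2 (adjusted p 0.0532 to 0.0572), Acsm5 without normoxia replicate 4 (0.0548) and Robo4 without normoxia replicate 3 (0.0504).

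Genes that hypoxia alone had raised and that were nearer to normoxia with estradiol included Grem1, which blocks BMP ligands. It read 6.13, 6.11, 6.28 and 6.55 in normoxia, 7.91, 8.02, 8.09 and 7.90 in hypoxia alone, and 6.90, 7.03, 7.0 and 6.54 with estradiol. The estradiol arrays lay between the other groups, and replicate 4 fell within normoxia. Grem1 was 0.60 above normoxia (adjusted p = 0.0226) and 1.11 below hypoxia alone on the log2 scale (-1.11, adjusted p = 0.00848, and -1.26, adjusted p = 0.0533, in replicates 1 and 4 alone). Its call against normoxia was lost without estradiol replicate 2 or 3 or normoxia replicate 1 or 2 (highest adjusted p 0.0753, 0.55, without normoxia replicate 2).

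Lypd1, a membrane-anchored modulator of acetylcholine receptors, read 7.02, 6.77, 7.17 and 7.10 in normoxia, 9.26, 9.20, 8.89 and 9.34 in hypoxia alone, and 8.48, 8.24, 7.98 and 8.66 with estradiol. The 3 groups did not overlap. It was 1.33 above normoxia (adjusted p = 4.32e-05) and its difference from hypoxia alone was -0.83 (adjusted p = 0.031). Inhba was 1.0 above normoxia in hypoxia alone and 0.47 above it with estradiol (difference -0.52, adjusted p = 0.0362). The vessel guidance receptor Robo4 was 0.80 and 0.40 above normoxia (difference -0.39, adjusted p = 0.0399) and Dpysl5 was 0.89 and 0.39 above it (difference -0.50, adjusted p = 0.0362). Dpysl5 lost its call against normoxia in 4 of 8 fits without 1 array (highest adjusted p 0.0859, without normoxia replicate 1).

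Other genes were farther from normoxia with estradiol than in hypoxia alone. Cx3cr1 read 10.19, 10.10, 9.89 and 9.79 in normoxia, 10.10, 9.86, 9.87 and 10.14 in hypoxia alone, and 9.13, 9.20, 9.15 and 9.53 with estradiol. The hypoxia arrays lay within the normoxia range and the estradiol arrays below both (-0.74 against hypoxia, adjusted p = 0.0295). Apln read 10.39 to 10.53 in normoxia and 9.96, 9.87, 9.26 and 9.37 with estradiol, where it was 0.84 below normoxia on the log2 scale (-0.84, adjusted p = 0.0064) and differed from hypoxia alone by -0.81 (adjusted p = 0.0362). Spon2 read 11.85 to 11.98 in normoxia and 10.07, 10.97, 10.73 and 10.96 with estradiol, with replicate 1 the lowest, and differed from hypoxia alone by -0.76 (adjusted p = 0.0362). Dll4 (-0.53, adjusted p = 0.0362) was also further below normoxia than in hypoxia alone. Mrc1 read 10.83, 10.79, 10.91 and 10.98 in normoxia, against 11.62, 11.44, 11.78 and 11.33 with estradiol, and was 0.49 above hypoxia alone (adjusted p = 0.0362).

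The neutrophil genes S100a8 (log2 1.74 above hypoxia alone, adjusted p = 0.0295), Fcar (1.82, adjusted p = 0.0362) and S100a9 (1.61, adjusted p = 0.0362) and the clock gene Per1 (1.31, adjusted p = 0.0392) were higher than in hypoxia alone. The acyl-CoA synthetase Acsm5 was -0.80 from normoxia (adjusted p = 0.014) and -0.78 from hypoxia alone (adjusted p = 0.0485), and the retinoic acid synthase Aldh1a3 -0.60 (adjusted p = 0.0265) and -0.72 (adjusted p = 0.0362). The phosphodiesterase Pde4c was 0.44 above normoxia (adjusted p = 0.0455) and 0.62 above hypoxia alone (adjusted p = 0.0362), and it overlapped normoxia. Against normoxia Acsm5 dropped out when normoxia replicate 2 was omitted (-0.70, adjusted p = 0.0502), Aldh1a3 in 4 of 8 fits and Pde4c in 6 of 8 fits without 1 array (highest adjusted p 0.0842 and 0.121). Without estradiol replicates 2 and 3 these 7 genes kept the direction of the difference from hypoxia alone, at -1.06 (Acsm5) to 1.18 (Fcar), and none passed.

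**Figure D4:**
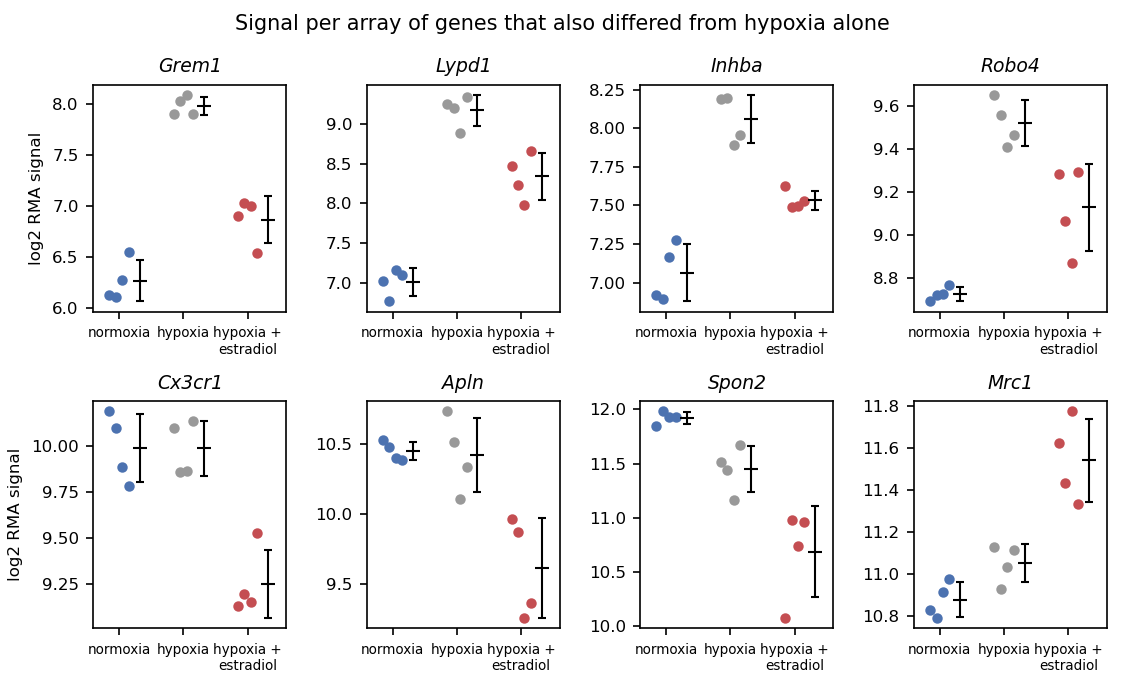
Log2 RMA signal of 8 genes past the threshold against normoxia and against hypoxia alone, 1 point per array in normoxia, hypoxia and hypoxia with estradiol, with the mean and SD of each group (4 arrays) as a bar; the vertical axes differ between genes and do not start at 0. The estradiol means of Grem1, Lypd1, Inhba and Robo4 lie between normoxia and hypoxia, and those of Cx3cr1, Apln, Spon2 and Mrc1 beyond both. For any gene past both tests the signs of the tests set which of these holds.

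Of the 137 named genes 129 passed against normoxia. With each of the 8 arrays omitted in turn, 77 of them passed every time and 52 lost the call in at least 1. The calls lost were 24, 37, 35 and 14 without estradiol replicates 1 to 4 and 44, 42, 31 and 29 without normoxia replicates 1 to 4. No sign turned among the 129 in any of these 8 fits, nor in replicates 1 and 4 alone. For genes whose arrays did not overlap normoxia, as in most of the 129, leaving out arrays cannot turn the sign. In replicates 1 and 4 alone 71 of the 129 passed. Among them were Ntrk2 (log2 3.70), Frzb (2.01), Bmp2 (1.83), Slc26a10 (1.77), Lyve1 (-2.26), Npr3 (-1.91), Dll4 (-1.40) and Hpgd (-1.34), all near their values over 4 arrays. Amd1 was farther from normoxia in these replicates (2.10), and Npas2 as well (-1.43 against -0.94).

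**Figure D5:**
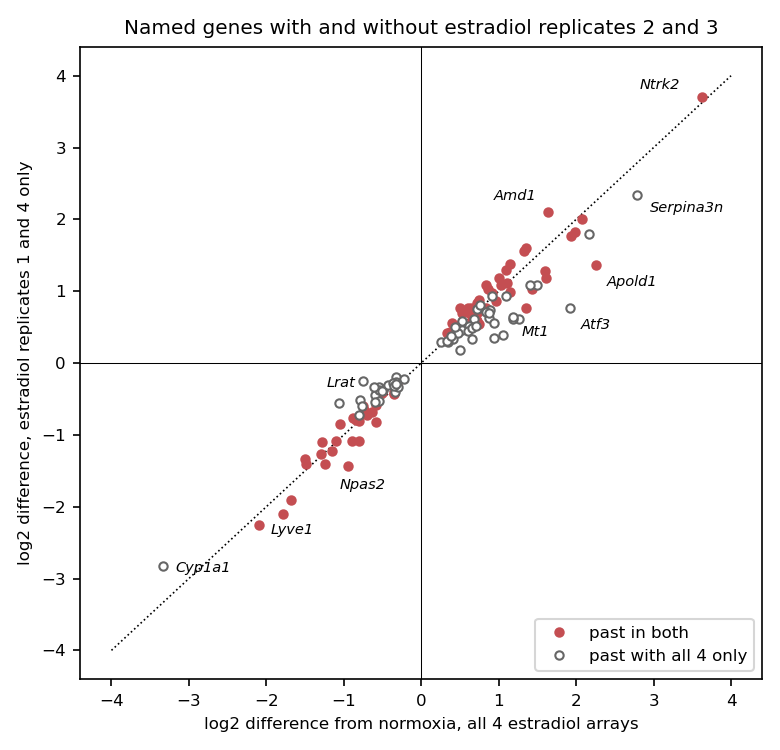
Log2 difference from normoxia of the named genes past the threshold, over all 4 estradiol arrays on the horizontal axis and over estradiol replicates 1 and 4 alone on the vertical axis, with equality as a dotted line. Filled points pass in both fits and open points with all 4 arrays only; Ntrk2 (3.63 and 3.70) and Lyve1 (-2.10 and -2.26) stay in place and Atf3 (1.92 and 0.77) moves toward 0.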

How the data were processed

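Total RNA from the right lung of 16 rats, 1 array per rat, was measured after the Ambion WT kit and biotin labelling, with an RNA integrity number of at least 9 per the labels. The deposited values are log2 signals that the authors made with RMA and Partek, per the submitters' processing notes, which give no versions. RMA gives all arrays a like distribution, which would hide a shift common to most genes. Array medians lay between 7.69 and 7.77. With 4 arrays per group, their number limits the precision. The array genome build is not given in the sources used here.

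Of 29214 probe sets, 15310 had 1 gene symbol, 323 several and 13581 none. The probe set with the highest mean stood for a gene (527 genes had several), which left 14506 genes, 14480 of them in the RefSeq table. Groups came from titles, and the conflicting treatment field of normoxia replicate 4 was tested as an alternative. The labels describe separate rats.

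One linear model with 4 group means over 16 arrays was fitted with limma 3.58.1 in R 4.3.3, with empirical Bayes moderation and Benjamini-Hochberg adjustment over all genes at 0.05. The calculation was also tested on simulated data. Tables were made with Python 3.11.15, pandas 2.3.3 and numpy 2.4.6. Alternatives were array centring, a repeated quantile normalization, a filter on the dimmest 25% of genes, probe set means, all probe sets, the 8 compared arrays only, trend with robust estimation, array weights, omission of estradiol replicates 2 and 3, and omission of each array.

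Named genes were the 12 highest and 12 lowest changes that passed without overlap of arrays (placeholder symbols skipped), and up to 5 passing members of each list with at least 3. To these were added up to 8 genes past both comparisons in the same direction, up to 8 in opposite directions, and 15 genes always taken. Other members are named where a list is described, after their values were seen. The comparison, the 44 lists and this rule were chosen with earlier results of these data known.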

Additional observations from a re-analysis of the deposited data

Results flagged for a closer look

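In 14 of 274 groups of 4 arrays checked, over 137 named genes, 1 array stood apart by a gap above Dixon's critical value, given here as a share of the range of the group. Chance alone does so in about 1 in 20 groups. With estradiol, replicate 2 was the highest for Frzb (0.961) and Cacnb2 (0.934), replicate 1 the highest for Hmox1 (0.834), replicate 3 the lowest for Smad6 (0.884), and replicate 4 the highest for Cx3cr1 (0.845) and the lowest for Gper1 (0.839). In normoxia, replicate 1 was the highest for Kit (0.847) and Ace (0.92) and the lowest for Bhlhe41 (0.927) and Maob (0.956). Normoxia replicate 2 was the highest for Vipr2 (0.945) and the lowest for Fzd8 (0.847) and Arnt2 (0.867), and normoxia replicate 4 the highest for Amd1 (0.965).

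For 17 named genes the distance from normoxia differed with and without estradiol, in limma's test of hypoxia with estradiol against hypoxia alone. Some of these genes were named because they passed this test. The log2 difference was positive for Fcar (1.82), S100a8 (1.74), S100a9 (1.61), Per1 (1.31), Pde4c (0.62) and Mrc1 (0.49). It was negative for Grem1 (-1.11), Lypd1 (-0.83), Apln (-0.81), Acsm5 (-0.78), Spon2 (-0.76), Cx3cr1 (-0.74), Aldh1a3 (-0.72), Dll4 (-0.53), Inhba (-0.52), Dpysl5 (-0.50) and Robo4 (-0.39). Without estradiol replicates 2 and 3 each kept its sign and none passed (adjusted p from 0.0533 for Grem1 to 0.392 for Per1). The differences were then 1.18 for Fcar, 1.17 for S100a8, 1.10 for S100a9, 0.86 for Per1, 0.68 for Pde4c and 0.43 for Mrc1. For the lower genes they were -1.26 (Grem1), -0.60 (Lypd1), -0.76 (Apln), -1.06 (Acsm5), -0.93 (Spon2), -0.66 (Cx3cr1), -0.65 (Aldh1a3), -0.44 (Dll4), -0.48 (Inhba), -0.51 (Dpysl5) and -0.23 (Robo4).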

How the results depend on the processing

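Against normoxia 417 genes were higher and 339 lower, 251 at least 1.5-fold, 29 lists had at least 3 members past the threshold, and 17 named genes differed from hypoxia alone. With normoxia replicate 4 counted as hypoxia these values were 171, 180, 148, 13 and 0. Without estradiol replicates 2 and 3 they were 195, 130, 163, 16 and 0. With the 8 compared arrays only, 128 were higher and 88 lower, 137 at least 1.5-fold, and 13 lists remained at 3 or more. Array weights gave 223 lower genes and 2 named genes against hypoxia alone. Leaving out 1 array at a time gave 203 to 523 higher, 181 to 364 lower, 174 to 347 at least 1.5-fold, 1 to 29 named genes against hypoxia alone and 22 to 30 lists. Over all probe sets 350 were higher and 330 lower, and with median centring 370 and 376. Of the 129 named genes past the threshold, 62 passed with normoxia replicate 4 as hypoxia, 66 with the 8 arrays only, 71 without estradiol replicates 2 and 3 and 101 with array weights. Only Esr2 and Gper1, which did not pass, turned sign among the named genes. Where the arrays of a gene did not overlap normoxia, leaving arrays out cannot turn its sign. Gper1 was at -0.035 with array weights, -0.071 with normoxia replicate 4 as hypoxia and -0.083 without estradiol replicates 2 and 3. With 1 array left out Esr2 ranged from -0.21 to 0.045 and Gper1 from -0.071 to 0.097. The causes were not tested. No paired analysis was possible because the titles give the groups no shared replicate numbers.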
